A study of Mus musculus with 16 samples.

Results

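The genes described here are 10 subunits of ionotropic glutamate receptors, namely the AMPA subunits *Gria1* to *Gria4*, the kainate subunits *Grik1* to *Grik5* and the NMDA subunit *Grin1*, out of 49671 genes listed in the counts. They were chosen by name, and each was followed in sensory neurons of dorsal root ganglia (DRG), with proprioceptors, the neurons that report muscle length and force, set against other sensory neurons. Single tdTomato+ cells were taken from mouse DRG at embryonic day 15.5 (e15.5) and postnatal day 1 (p1) and sequenced with CEL-Seq2, which counts 1 unique molecular identifier (UMI) per captured transcript near its 3′ end. The 10 e15.5 libraries came from PvtdTom mice, in which a BAC transgene places tdTomato under the parvalbumin promoter, and their 960 cells were obtained by cell sorting from thoracic and lumbar ganglia. The 6 p1 libraries carry a joint strain label, Trpv1Cre; PvFlp; Ai65 and PvCre; Ai14, in which tdTomato is switched on by Cre and Flp together or by Cre alone. The labels describe sorting for all cells, whereas the methods of the study state that the 576 p1 cells were picked by hand. No agent was given in any group, and the segmental level, or at p1 the line, of a given library is not in the labels, so neither was compared. Parvalbumin also marks a few cutaneous mechanoreceptors, so tdTomato alone does not single out proprioceptors.

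A well was counted as a sensory neuron when it held at least 10000 UMIs and at least 100 CPM (the UMIs of a gene scaled to a total of 1000000 for the well) of *Avil* and *Isl1* together, and as a proprioceptor when at least 3 of *Pvalb*, *Runx3*, *Etv1* and *Ntrk3* reached 100 CPM. At e15.5, 434 of 960 wells were sensory neurons, of which 339 were proprioceptors (10 to 70 in a library), 68 were other neurons with at most 1 of these markers (3 to 17 in a library) and 27 had 2 markers and were left out. At p1, 365 of 576 wells were sensory neurons and 356 were proprioceptors (11 to 83 in a library), and the 5 other neurons were too few for a test. Although all e15.5 cells are labelled as neurons, 366 wells lacked the neuronal markers and held at least 1000 CPM of *Col1a1* and *Col1a2*. These connective wells served as a background in which subunits of neuronal receptors should be low. Libraries held 3701900 to 9299431 UMIs at e15.5 and 386517 to 8814472 at p1, where library 3 was by far the shallowest. Levels are given per library, as the CPM of all wells of a class in that library summed. Nothing says that libraries came from separate animals, so the p-values below measure the spread between libraries.

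Glutamate is the transmitter that proprioceptors release onto motor neurons and interneurons of the spinal cord, and sensory neurons also make glutamate receptor subunits of their own. AMPA receptors carry fast excitatory current, and the RNA-edited form of the subunit encoded by *Gria2* keeps them from passing much calcium. Kainate receptors combine subunits that can form channels by themselves (*Grik1* to *Grik3*) with the high-affinity subunits *Grik4* and *Grik5*, which need such a partner. NMDA receptors require the product of *Grin1* together with a Grin2 or Grin3 subunit.

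Promoter windows are shown for the members on which the comparisons turn, namely *Gria2* and *Gria4*, which were higher in proprioceptors than in other neurons, and *Grik5* and *Grin1*, which moved in opposite directions from e15.5 to p1. RefSeq promoter sequences (GRCm38.p6, 250 bases before to 50 bases after the start) were given for 7 of the 10 members, without *Gria1*, *Gria3* and *Grik1*. They were searched on both strands for CCGGAA (an ETS core, the family of *Etv1*), TGTGGT (a RUNX core, the family of *Runx3*), GGGCGG (a GC box) and CACGTG (an E-box), and matches are in capitals. *Gria2* (chr3:80802786-80803085, minus strand) and *Gria4* (chr9:4796185-4796484, minus strand) held none of the 4 motifs. *Grik5* (chr7:25072320-25072619, minus strand) held 2 GC boxes, and *Grin1* (chr2:25319138-25319437, minus strand) held 1 RUNX core, read on the opposite strand as ACCACA, 1 GC box and 2 E-boxes. Of the members not printed, *Grik2* held 3 ETS cores (2 of them overlapping on opposite strands in TTCCGGAA), *Grik3* 7 GC boxes and *Grik4* 2 GC boxes. Of 32851 promoters of the same length, 14.9% held the ETS core at least once, 16.8% the RUNX core, 35.7% the GC box and 7.15% the E-box, so a single match is not rare. How often a promoter holds several matches was not counted, and a match is only a match of letters.
Gria2: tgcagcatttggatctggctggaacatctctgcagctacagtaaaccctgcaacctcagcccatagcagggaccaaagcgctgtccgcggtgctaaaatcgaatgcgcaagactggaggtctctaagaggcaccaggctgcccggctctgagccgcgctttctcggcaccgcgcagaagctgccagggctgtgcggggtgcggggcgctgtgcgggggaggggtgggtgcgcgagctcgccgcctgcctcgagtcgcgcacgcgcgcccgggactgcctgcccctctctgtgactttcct
Gria4: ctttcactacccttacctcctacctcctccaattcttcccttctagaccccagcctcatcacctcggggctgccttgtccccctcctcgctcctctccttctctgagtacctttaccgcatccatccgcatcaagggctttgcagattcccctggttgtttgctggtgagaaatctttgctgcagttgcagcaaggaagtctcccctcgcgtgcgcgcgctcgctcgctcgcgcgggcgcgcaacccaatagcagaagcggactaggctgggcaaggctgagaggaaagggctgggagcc
Grik5: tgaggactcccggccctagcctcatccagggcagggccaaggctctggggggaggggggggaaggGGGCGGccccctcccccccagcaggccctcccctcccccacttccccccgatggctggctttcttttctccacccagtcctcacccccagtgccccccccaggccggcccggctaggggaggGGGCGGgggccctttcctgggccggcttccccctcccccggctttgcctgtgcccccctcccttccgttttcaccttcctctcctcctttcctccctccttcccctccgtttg
Grin1: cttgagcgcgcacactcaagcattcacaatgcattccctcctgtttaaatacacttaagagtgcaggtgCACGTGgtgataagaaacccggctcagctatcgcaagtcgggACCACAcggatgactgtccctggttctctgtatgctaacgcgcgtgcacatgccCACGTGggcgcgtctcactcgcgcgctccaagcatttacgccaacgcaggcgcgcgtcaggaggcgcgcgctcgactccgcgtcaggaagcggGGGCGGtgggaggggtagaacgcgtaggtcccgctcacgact

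Among the AMPA subunits at e15.5, *Gria2* and *Gria4* were about 3 times higher in proprioceptors than in other sensory neurons. *Gria2* (ENSMUSG00000033981, chromosome 3, 80681450 to 80802835, minus strand) was the most abundant member in proprioceptors, with a lowest library of 249 CPM, a median of 276 and a highest of 349 (289 ± 32.7, mean ± SD, n = 10 libraries). In other neurons it ranged from 0 through a median of 89.8 to 214 CPM (81.5 ± 60.8, n = 10). The groups did not overlap, and *Gria2* was higher in proprioceptors within 10 of 10 libraries. The log2 fold change was 1.71 ± 0.26 (SE), a 3.27-fold difference, with an adjusted p = 3.06e-05 in the quasi-likelihood test of edgeR, adjusted by the method of Benjamini and Hochberg over 10863 genes. The library at 0 UMIs was library 6, whose 4 other neurons were shallow enough that a count of 0 allows up to 31.7 CPM. The sums of other neurons varied more in their markers than those of proprioceptors, with 412 to 6274 CPM of 5 sensory neuron genes against 4792 to 5919, and 701 against 352 CPM of 6 glial genes over all wells. *Gria2* was still called with any 1 library left out and without wells rich in glial transcript. Without neuron wells of at least 1000 CPM of *Col1a1* and *Col1a2*, the log2 differences were smaller, at 1.26 for *Gria2* and 1.19 for *Gria4*.

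*Gria4* (ENSMUSG00000025892, chromosome 9, 4417896 to 4796234, minus strand), the subunit typical of fast AMPA receptors, had a lowest, median and highest library of 68.9, 91.6 and 126 CPM in proprioceptors. The same values in other neurons were 0, 27 and 51.1 CPM. Again the groups did not overlap and the difference held within 10 of 10 libraries (log2 fold change 1.54 ± 0.22, SE, 2.92-fold, edgeR adjusted p = 1.12e-05). With the 4 markers counted one by one, *Gria2* was at 73.9 CPM in wells with no marker, 109 with 1, 141 with 2, 234 with 3 and 310 with all 4, so that the wells just outside and just inside the limit of 3 markers lay at 141 and 234 CPM. *Gria4* was at 19.6 CPM in wells with no marker, 41.9 with 1, 30.9 with 2, 54.6 with 3 and 91.2 with all 4, so it did not rise at each step.

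*Gria3* (ENSMUSG00000001986, chromosome X, 41400854 to 41678601, plus strand) was lower in proprioceptors, with libraries from 9.33 through a median of 15.3 to 25.0 CPM against 11.9, 22.6 and 81.8 CPM in other neurons. The groups overlapped, and 8 of 10 libraries had the lower value in proprioceptors (log2 fold change -1.07 ± 0.31, SE, edgeR adjusted p = 0.0114). In connective wells *Gria3* was at 28.2 CPM, above the 14 CPM of all proprioceptors summed. Other neurons carried more connective transcript than proprioceptors, 3511 against 178 CPM summed over the 5 connective genes, with libraries from 62.6 to 24719 and from 24.9 to 621 CPM. Without the 28 of 68 other neurons and 20 of 339 proprioceptors that held at least 1000 CPM of *Col1a1* and *Col1a2*, the *Gria3* difference was -0.58 on the log2 scale and was no longer called (edgeR adjusted p = 0.254), whereas *Gria2* (1.26, edgeR adjusted p = 5.28e-06) and *Gria4* (1.19, edgeR adjusted p = 2.87e-05) still were. Between wells with all 4 markers and wells with none, the *Gria3* difference had the opposite sign, 0.63 (edgeR adjusted p = 0.209). The *Gria3* call was also lost with sums of at least 5 wells (edgeR adjusted p = 0.0691), in wells of at least 50000 UMIs (0.190) and with markers counted from 50 CPM (0.211).

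*Gria1* (ENSMUSG00000020524, chromosome 11, 57011387 to 57330244, plus strand) was nearly absent from e15.5 proprioceptors, with libraries from 0.336 through 1.14 to 7.09 CPM. Other neurons had 0, 19.7 and 36.5 CPM, and the groups overlapped. A UMI of *Gria1* was found in 9.73% of proprioceptor wells, close to the 8.20% of connective wells, at median depths of 111401 and 28259 UMIs per well. The share in other neurons was 39.7% at a median of 45481 UMIs. *Gria1* did not pass the filter on low counts. With no filter it was lower in proprioceptors (log2 fold change -2.79 ± 0.49, SE, edgeR adjusted p = 0.000133), in a test of 29242 genes of which 8.44% were called lower and whose median change was 0.17.

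Of the 7 members that passed the filter on low counts, 3 were called higher and 1 lower in proprioceptors, where 13.7% of all 10863 genes tested were called higher and 15.8% lower. The median log2 difference was 0.09 over these 7 members and -0.02 over all genes. As a share of all AMPA subunit UMIs, *Gria2* took 74.3% in proprioceptors and 52.9% in other neurons, *Gria4* 21.6% and 18.3%, *Gria3* 3.40% and 15.6%, and *Gria1* 0.651% and 13.3%.

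**Figure D1:**
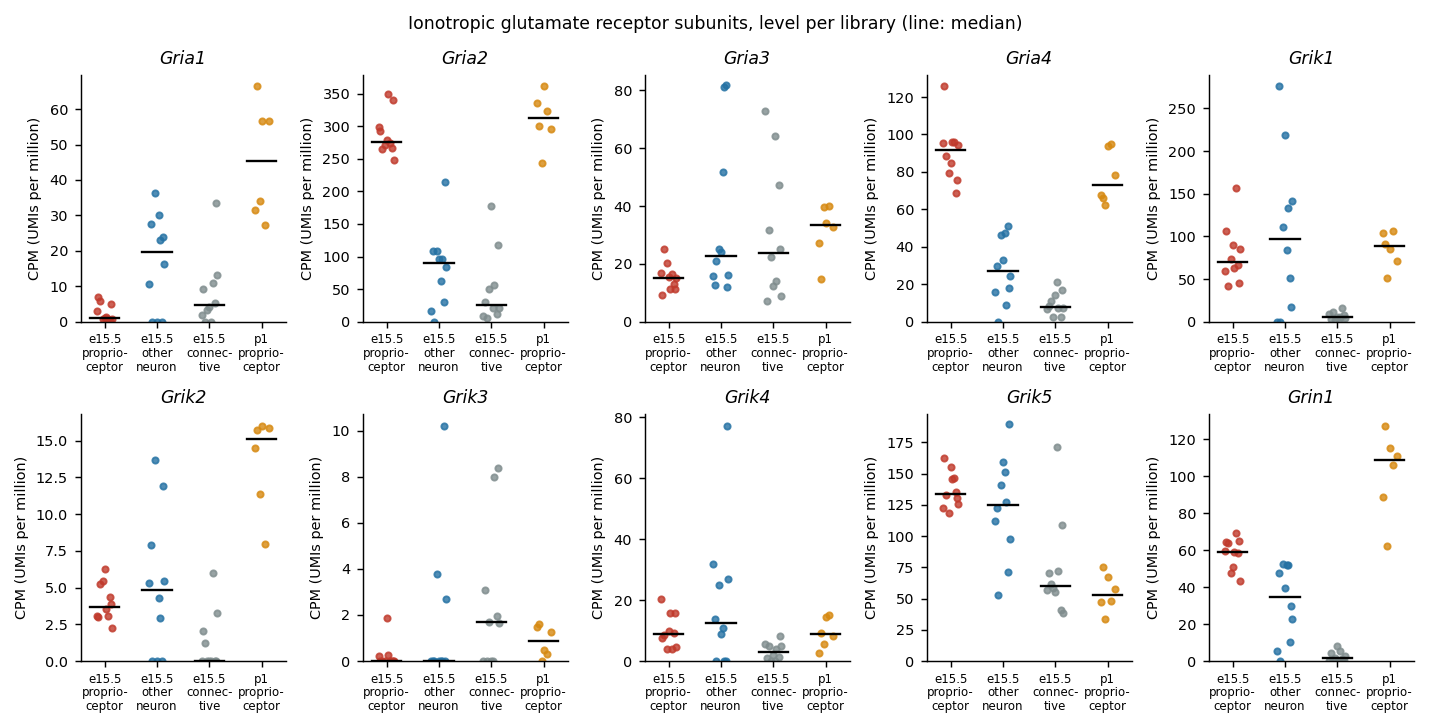
CPM of each subunit in each library (points, linear axis per gene) for proprioceptors, other neurons and connective wells at e15.5 and proprioceptors at p1, with a line at the median. Proprioceptor libraries of *Gria2* (249 CPM or more) and *Gria4* (68.9 CPM or more) lie above every library of other neurons at e15.5, and *Gria1* is near 0 in e15.5 proprioceptors and 27.4 CPM or more at p1.

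The kainate subunits were led by *Grik5* and *Grik1* in both kinds of neuron, and at e15.5 no kainate subunit passed the test between them. *Grik5* (ENSMUSG00000003378, chromosome 7, 25009849 to 25072346, minus strand) had libraries of 119, 134 and 162 CPM (lowest, median and highest) in proprioceptors and 52.8, 125 and 190 CPM in other neurons. The ranges lay inside each other (log2 fold change 0.09 ± 0.14, SE, edgeR adjusted p = 0.670). *Grik5* was also found in connective wells, at 58.8 CPM and in 72.1% of wells, so its counts were not limited to neuron wells.

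*Grik1* (ENSMUSG00000022935, chromosome 16, 87895900 to 88290265, minus strand) ranged from 42.1 through a median of 70.1 to 157 CPM in proprioceptors. In other neurons it ranged from 0 through 97.6 to 276 CPM, and it was higher in 5 libraries and lower in 5. The difference was -0.64 ± 0.38 (SE) on the log2 scale and was not called (edgeR adjusted p = 0.208). It was called with the wells rich in connective transcript left out (-1.24, edgeR adjusted p = 0.0126), in wells of at least 50000 UMIs (-1.24, edgeR adjusted p = 0.0191) and with markers counted from 50 CPM (-0.99, edgeR adjusted p = 0.0339).

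*Grik4* (ENSMUSG00000032017, chromosome 9, 42518135 to 42944493, minus strand) was at 3.85, 8.81 and 20.2 CPM (lowest, median and highest library) in proprioceptors and 0, 12.3 and 77.2 CPM in other neurons. The groups overlapped and the difference was not called (-0.86 ± 0.43, SE, edgeR adjusted p = 0.137), although it was without the wells rich in connective transcript (-1.21, edgeR adjusted p = 0.0459) and between wells with all 4 markers and none (-1.52, edgeR adjusted p = 0.0233). *Grik2* (ENSMUSG00000056073, chromosome 10, 49094833 to 49788766, minus strand) had 2.27 to 6.25 CPM in proprioceptor libraries, at 4.06 CPM over all wells against 1.91 in connective wells. A UMI was found in 28.3% and 3.55% of these wells, at median depths of 111401 and 28259 UMIs. *Grik3* (ENSMUSG00000001985, chromosome 4, 125490700 to 125714173, plus strand) was found in 2.36% of proprioceptor wells and 3.28% of connective wells, which is no more than background, and 7 of its 14 UMIs lay in 1 well. *Grik2* and *Grik3* did not pass the filter on low counts, and with no filter neither was called (edgeR adjusted p = 0.424 and 0.151).

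The NMDA subunit *Grin1* (ENSMUSG00000026959, chromosome 2, 25291181 to 25319187, minus strand) was at 59.4 CPM over all proprioceptor wells and 2.45 CPM in connective wells, with a UMI in 86.4% and 4.37% of them at the depths given above. Its libraries had 43.1, 59.3 and 69.3 CPM (lowest, median and highest) in proprioceptors and 0, 34.5 and 52.4 CPM in other neurons, with a small overlap. The value was higher in proprioceptors in 9 of 10 libraries, and the 1.52-fold difference was called narrowly (log2 fold change 0.61 ± 0.22, SE, edgeR adjusted p = 0.0395). With the library as a replicate block the difference was 0.71 (edgeR adjusted p = 0.0721), and without the wells rich in connective transcript 0.35 (edgeR adjusted p = 0.0955), and the call was lost in 14 of 21 alternatives. Among these were the omission of library 1, 2, 4, 5, 6, 7, 8 or 10, with edgeR adjusted p between 0.0506 and 0.0824. A gene antisense to the 3′ end of *Grin1*, *Grin1os*, held 10 UMIs at e15.5 against 2699 of *Grin1*.

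**Figure D2:**
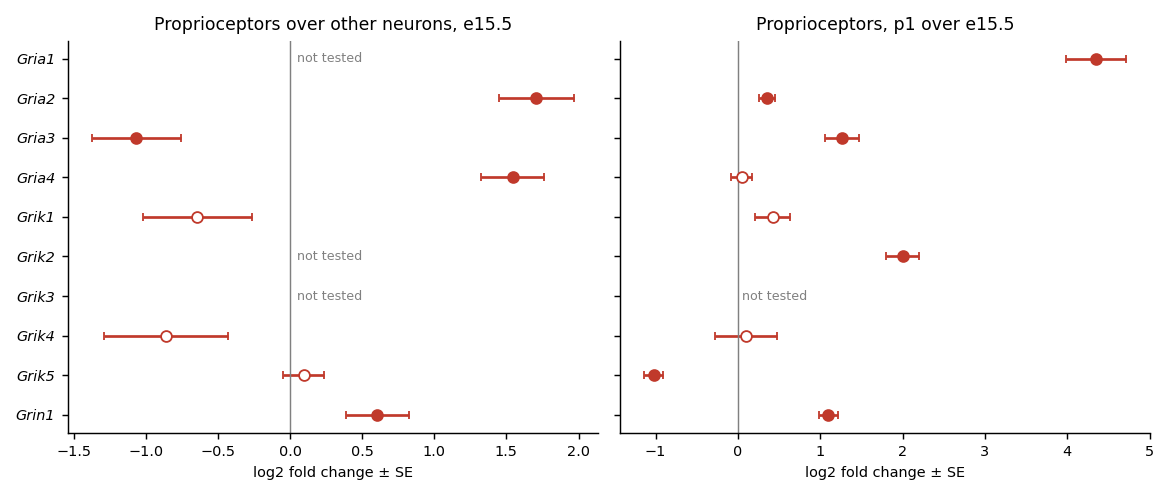
Log2 fold change with its SE for each tested subunit, for e15.5 proprioceptors against other neurons and for proprioceptors at p1 against e15.5, with filled points for an edgeR adjusted p under 0.05. *Gria2* (1.71) and *Gria4* (1.54) lead the first comparison, and *Gria1* (4.35) and *Grik2* (2.0) the second, where *Grik5* alone is called lower (-1.02).

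Partners of these receptors were read from lists of other subunits, auxiliary subunits, scaffolds, editing enzymes and metabotropic receptors. Among other ionotropic subunits, the delta receptor subunit *Grid1* was higher in proprioceptors than in other neurons (2.65 on the log2 scale, edgeR adjusted p = 0.000201) and *Grin3a* was lower (-2.09, edgeR adjusted p = 0.000355). The Grin2 subunits that *Grin1* needs were low in proprioceptors, at 3.56 CPM for *Grin2a*, 0.419 for *Grin2b*, 0.0524 for *Grin2c* and 1.96 for *Grin2d*, against 59.4 CPM for *Grin1*. Since counts are taken at 3′ ends they need no scaling by length, but a 3′ end missing from the annotation would lower a count, which was not tested.

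Of 16 auxiliary subunits, which set the trafficking and gating of AMPA and kainate receptors, 10 were tested, 3 were higher, 1 was lower and 6 were not called. *Cacng5* (2.37, edgeR adjusted p = 2.42e-06), the kainate receptor partner *Neto1* (2.06, 0.00160) and *Cnih2* (0.77, 0.00853) were higher in proprioceptors and *Cacng4* (-0.81, 0.0446) was lower. Of 9 scaffold and trafficking genes 8 were tested and 1 was higher, *Grip1*, a binding partner of AMPA subunits (0.71, edgeR adjusted p = 0.00490). Among 3 RNA editing enzymes 2 were tested, and *Adarb1*, the enzyme that edits the *Gria2* transcript, was higher (2.01, edgeR adjusted p = 1.02e-07). Of 8 metabotropic receptors 4 were tested, and *Grm3* (2.35, edgeR adjusted p = 1.23e-05) and *Grm4* (2.24, edgeR adjusted p = 1.06e-05) were higher.

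From e15.5 to p1, proprioceptors gained *Gria1*, *Grik2*, *Gria3* and *Grin1* and lost *Grik5*. Of 9 members tested, 5 were called higher at p1 and 1 lower, where 30.6% of all 13935 genes tested were called higher and 31.9% lower, and the median log2 difference was 0.42 over the members and -0.03 over all genes. Age cannot be told apart from the mouse line and the way cells were isolated. Glial transcripts summed to 352 CPM at e15.5 and 333 CPM at p1 over 6 genes, and connective transcripts to 178 and 187 CPM, so neither moved much with age.

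*Gria1* was at 27.4, 45.3 and 66.4 CPM (lowest, median and highest library) at p1, above the 7.09 CPM of the highest e15.5 library. The log2 fold change was 4.35 ± 0.36 (SE), a 20.5-fold rise (edgeR adjusted p = 3.70e-09). The share of proprioceptor wells with a *Gria1* UMI went from 9.73% at a median of 111401 UMIs to 68.3% at a median of 55768 UMIs. In the 5 other neurons at p1 *Gria1* was at 55.9 CPM, on 15 UMIs.

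*Gria3* rose 2.41-fold (log2 fold change 1.27 ± 0.21, SE, edgeR adjusted p = 2.37e-05), with p1 libraries of 14.8, 33.4 and 40.2 CPM that overlapped those of e15.5 at their low end. *Gria2* was at 244, 312 and 361 CPM at p1 and overlapped e15.5. Its rise after TMM scaling was 1.28-fold (0.35 ± 0.09, SE, edgeR adjusted p = 0.00314), and was not called with no filter on low counts (0.25, edgeR adjusted p = 0.0744). *Gria4* did not pass the test, with 62.3, 73.3 and 95 CPM at p1 and a log2 fold change of 0.05 ± 0.13 (SE, edgeR adjusted p = 0.765). Fold changes are taken after TMM scaling between libraries, which the CPM values lack, so the 2 can differ. The library median of *Gria2* was 276 CPM at e15.5 and 312 at p1, and that of *Gria4* was 91.6 and 73.3 CPM. The share of AMPA UMIs held by *Gria1* was 8.96% at p1, that of *Gria2* 68.1%, that of *Gria3* 6.31% and that of *Gria4* 16.6%.

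Among the kainate subunits, *Grik2* rose and *Grik5* fell with age, and the other 2 tested were not called. *Grik5* fell by 1.02 on the log2 scale (SE 0.12, edgeR adjusted p = 2.88e-07), its p1 libraries of 34.0, 52.6 and 75.7 CPM all lying under the lowest e15.5 library at 119 CPM. *Grik2* rose 4.0-fold (2.0 ± 0.20, SE, edgeR adjusted p = 6.33e-08), with p1 libraries of 7.98, 15.1 and 16.0 CPM that did not overlap the e15.5 range. *Grik1* at 51.0, 88.3 and 106 CPM overlapped e15.5 and was not called (0.42 ± 0.22, SE, edgeR adjusted p = 0.0976), except without e15.5 library 2 (0.58, edgeR adjusted p = 0.00727). *Grik4* was at 2.74, 8.75 and 15.1 CPM and was not called (0.10 ± 0.37, SE, edgeR adjusted p = 0.840), and *Grik3*, at 1.03 CPM, was not tested. As shares of kainate subunit UMIs, *Grik5* went from 60.8% to 32.0%, *Grik1* from 31.9% to 54.4% and *Grik2* from 1.77% to 7.68%, while *Grik4* stood at 5.41% and 5.28%.

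**Figure D3:**
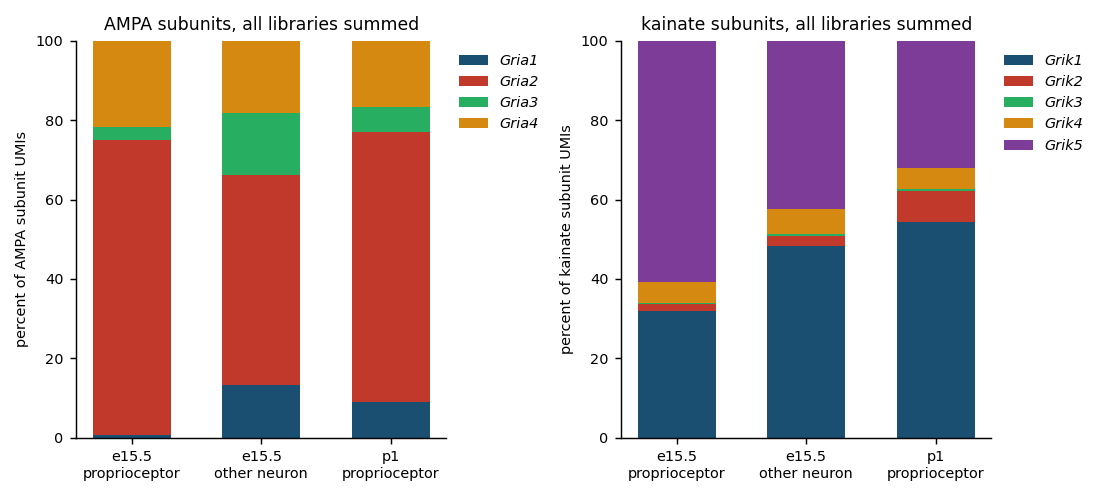
Stacked bars of the percent of AMPA (left) and kainate (right) subunit UMIs taken by each subunit in e15.5 proprioceptors, e15.5 other neurons and p1 proprioceptors, wells of all libraries summed. *Gria2* takes the largest AMPA share in each class (74.3%, 52.9% and 68.1%), and the largest kainate share passes from *Grik5* at e15.5 (60.8%) to *Grik1* at p1 (54.4%) in proprioceptors.

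*Grin1* rose 2.14-fold (1.10 ± 0.12, SE, edgeR adjusted p = 9.23e-08). Its p1 libraries had 62.3, 109 and 128 CPM, and only library 3, the shallowest, reached down into the e15.5 range. The calls of *Gria1*, *Grik2*, *Gria3*, *Grin1* and *Grik5* were kept in each of the 26 alternatives, library 3 left out included. The Grin2 subunits stayed low at p1, at 3.04 CPM for *Grin2a*, 0.329 for *Grin2b* and 0.988 for *Grin2d*, and *Grin2c* had 0 UMIs in 356 wells, which allows up to 1.03% of wells with a UMI (exact 95% binomial bound, counting error only).

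Of the auxiliary subunits, 12 were tested between the ages, of which 4 were higher and 6 lower at p1. Those with the largest differences fell, namely *Cacng4* by 2.52 on the log2 scale (edgeR adjusted p = 6.28e-07), *Cnih2* by 2.14 (3.78e-12), *Neto2* by 2.0 (4.40e-08) and *Shisa6* by 1.61 (0.0105). Among 8 scaffold and trafficking genes 4 were higher, with *Dlg4* at 1.87 (edgeR adjusted p = 3.60e-07), *Dlg2* at 1.55 (1.07e-08) and *Nsf* at 1.18 (2.76e-09), and *Dlg1* was lower at -0.84 (1.33e-05). Both editing enzymes tested were lower, *Adar* at -0.73 (edgeR adjusted p = 5.24e-06) and *Adarb1* at -0.45 (0.00312). Among other ionotropic subunits *Grin3a* was higher (0.98, edgeR adjusted p = 0.00363), and of 6 metabotropic receptors 2 were higher and 2 lower.

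Proprioceptors were then split by *Gabrg1* and *Tox*, genes that the study uses to mark muscle subtypes, into *Gabrg1*-marked wells (at least 50 CPM of *Gabrg1* and less of *Tox*) and *Tox*-marked wells (the converse). The 2 classes came partly from different libraries, whose segmental level, and at p1 line, is not in the labels. Between libraries, marking therefore cannot be told apart from level or line. At e15.5 there were 30 *Gabrg1*-marked wells, with 4 libraries holding 3 or more, and 100 *Tox*-marked wells, with 8 such libraries. Another 206 proprioceptors had neither mark and 3 had both, and these were left out of the test. *Gria2* was higher in *Gabrg1*-marked proprioceptors, at 285, 314, 480 and 436 CPM in libraries 7 to 10, against 181 to 273 CPM in the 8 *Tox*-marked sums. The groups did not overlap, and the 1.67-fold difference was called (log2 fold change 0.74 ± 0.15, SE, edgeR adjusted p = 0.00483), also with the library as a replicate block (0.73, edgeR adjusted p = 0.00177). It was the only member called of 7 tested, where 3.01% of 9919 genes were called higher and 2.53% lower. *Gria4* differed by 0.38 on the log2 scale (edgeR adjusted p = 0.229), and *Grik1* by 0.27, *Grik4* by 0.32 and *Grin1* by 0.14, none of them called. In the wells with neither mark *Gria2* was at 310 CPM, with libraries from 258 to 367 CPM that overlapped the *Gabrg1*-marked and the *Tox*-marked ones. It was at 589 CPM in the 3 wells with both marks, and neither group was tested against the marked classes.

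Glial transcripts were lower in *Gabrg1*-marked wells, at 235 against 500 CPM over the 6 genes, with libraries from 15.9 to 703 and from 174 to 1804 CPM. With wells of at least 200 CPM of 3 glial genes, among them *Apoe* and *Fabp7*, left out, the *Gria2* difference was 0.57 (edgeR adjusted p = 0.0544). It was 0.87 (0.0672) with marking at 100 CPM and 0.41 (0.404) with marking at 20 CPM, so the call rests on these choices. Of the partners, 4 of 9 auxiliary subunits tested were higher in *Gabrg1*-marked wells and 1 was lower, led by *Gsg1l* (-3.24, edgeR adjusted p = 0.00117), *Shisa6* (2.11, 0.0118), *Cacng2* (1.45, 0.00129) and *Cacng5* (1.29, 0.000659), and the metabotropic receptor *Grm4* was lower (-2.40, edgeR adjusted p = 0.00205).

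At p1 there were 66 *Gabrg1*-marked and 105 *Tox*-marked wells, while 177 had neither mark and 8 had both and were left out. The classes again came partly from different libraries, of unknown line and segmental level. Here it was *Gria1* that differed between the marked classes. Its *Gabrg1*-marked libraries had 34.8, 23.9, 14.6 and 16.9 CPM (libraries 1, 2, 4 and 5) and its *Tox*-marked libraries 44.8, 31.7, 74.4, 70.6 and 71.5 CPM (libraries 1, 3, 4, 5 and 6). The groups overlapped only through *Tox*-marked library 3, which rests on 3 UMIs. The log2 fold change was -1.39 ± 0.27 (SE, edgeR adjusted p = 0.0201), and *Gria1* was lower in *Gabrg1*-marked wells in 3 of the 3 libraries with both. It was the only member called of 8 tested, where 0.582% of 9790 genes were called higher and 0.409% lower. With the library as a replicate block the difference was -1.41 but not called (edgeR adjusted p = 0.647), as the number of genes called went from 97 to 2. The call was also lost without library 2 (edgeR adjusted p = 0.135), 4 (0.108), 5 (0.181) or 6 (0.0776), in wells of at least 50000 UMIs (0.0655) and with marking at 100 CPM (0.407). Glial transcripts were again lower in the *Gabrg1*-marked wells, at 208 against 463 CPM.

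*Gria3* at p1 was at 9.67, 47.0, 66.7 and 56.0 CPM in *Gabrg1*-marked libraries and 21.3, 21.1, 24.2, 16.9 and 13.5 CPM in *Tox*-marked ones, higher in 3 of 4 and lowest in library 1. The difference of 1.36 ± 0.36 (SE) was not called (edgeR adjusted p = 0.130), though it was with no filter on low counts (1.33, edgeR adjusted p = 0.000329) and without library 1 (1.70, edgeR adjusted p = 0.00560). In 1 fit over both ages, the difference between marked classes did not change with age past the threshold for any of 9 members, of which 2 had an unadjusted p under 0.05 in edgeR. Few genes passed in that fit, with 31 called higher and 16 lower of 11208, so a lack of calls among 9 members says little. The change was -0.68 ± 0.24 (SE) for *Gria2* (edgeR adjusted p = 0.321) and 1.39 for *Gria3* (edgeR adjusted p = 0.426), so a call at one age and not at the other is not shown to differ between ages.

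**Figure D4:**
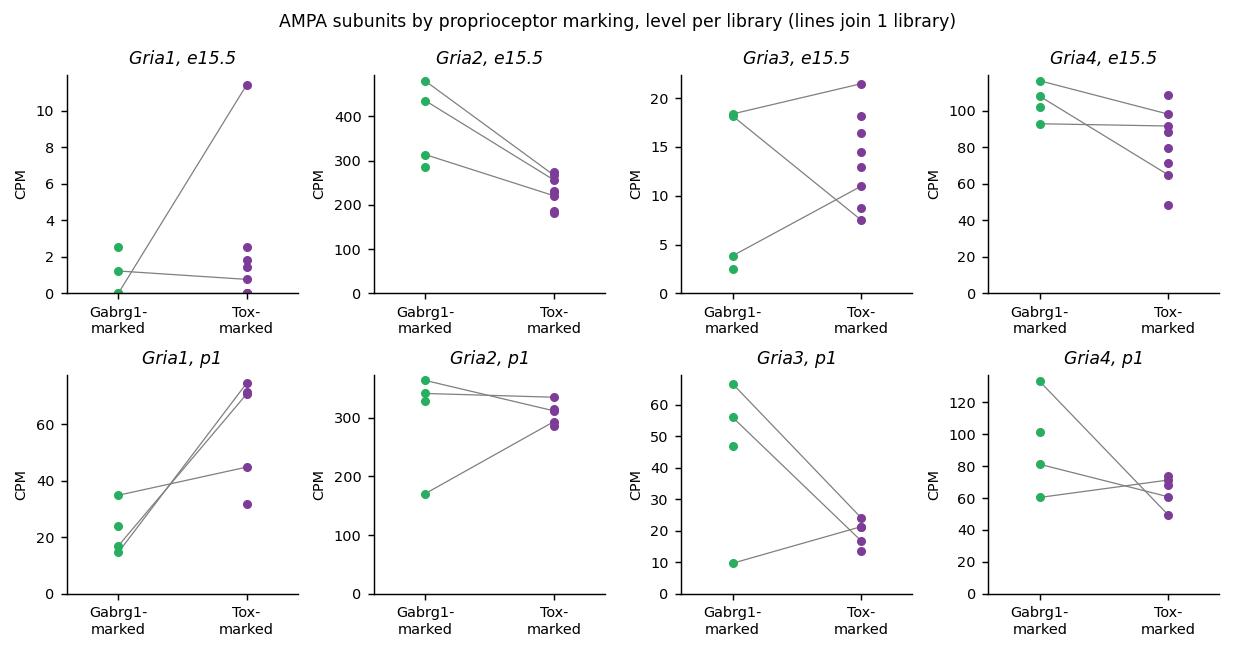
CPM of the 4 AMPA subunits in *Gabrg1*-marked and *Tox*-marked proprioceptors at e15.5 and p1, with 1 point per library and lines joining the sums of 1 library. *Gabrg1*-marked libraries of *Gria2* (285 CPM or more) lie above the *Tox*-marked ones (273 CPM or less) at e15.5, and those of *Gria1* are lower at p1 in each of the 3 libraries with both.

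The spread among single proprioceptors was measured after thinning each well to 10000 UMIs, as the variance over the mean within libraries, which is 1 when counting is the sole source of spread. Members with a mean of at least 0.1 UMI per thinned well were read, which were 7 at e15.5 and 8 at p1. At e15.5 *Gria2* had the highest index of these 7, at 2.02, with 10 of 10 libraries above 1 (1.18 to 4.03), higher than 96.4% of 10018 genes. It was at 0 in 19.2% of thinned wells, where counting alone would leave 6.58%. *Grik1* followed at 1.68 (1.08 to 2.56, 10 of 10 libraries above 1, higher than 94.4% of genes), with 57.2% of wells at 0 against 49.5%. *Gria4* (1.28) and *Grin1* (1.21) lay above the median gene at 1.08, and *Gria3* (1.15), *Grik5* (1.10) and *Grik4* (1.02) near it. Of these 7 members, 4 exceeded 1 by over 2 SD of counting noise, as did 30.0% of all genes with such a mean. For a given spread beyond counting the index grows with the mean, which was highest for *Gria2* at 2.86 UMIs. The coefficient of variation (SD over mean) beyond counting was 1.14 for *Gria3*, 0.954 for *Grik1*, 0.646 for *Grin1*, 0.607 for *Gria4* and 0.596 for *Gria2*. It was 0.473 for *Grik4*, 0.275 for *Grik5* and 0.369 for the median gene. The values of *Gria3*, *Grik4* and *Grik5* rest on indices within 2 SD of counting noise, so they are not told apart from counting alone. *Gria3* had a mean of only 0.115 UMI, and its index was above 1 in 4 of 10 libraries.

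In the unthinned wells, *Gria2* was at 57.7 CPM at the 10th percentile, 270 at the median and 506 at the 90th percentile of e15.5 proprioceptors, and *Grik1* at 0, 37.5 and 173 CPM. At e15.5 the levels also differed with depth, in wells pooled over libraries. The median depth over all wells of a library ranged from 24060.5 to 99782.5 UMIs, so depth was not separated from library. The 78 proprioceptors under 50000 UMIs had 163 CPM of *Gria2* and the 261 deeper ones 314, with 40.9 and 75.0 CPM of *Grik1*, 28.8 and 61.2 CPM of *Grin1* and 143 and 139 CPM of *Grik5*. The shallow wells also held more *Apoe*, a glial gene, at 804 against 58.0 CPM. In wells of at least 50000 UMIs, thinned alike, the index was 1.37 for *Gria2* (5.88% of wells at 0, against 5.30% for counting alone) and 1.60 for *Grik1*, both above 1 in 7 of 7 libraries, and 1.02 for *Gria4*. Without wells rich in glial transcript, *Gria2* was at 1.80 and *Grik1* at 1.36.

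At p1 the highest indices of the 8 members read were those of *Gria2* (1.75, libraries from 1.4 to 2.36), *Grik1* (1.61, from 1.10 to 2.60) and *Gria1* (1.55, from 1.04 to 2.03), each above 1 in 6 of 6 libraries and higher than 94.0% or more of 9358 genes. *Gria1* was at 0 in 61.5% of thinned wells, where counting alone would leave 55.8%, and its 10th percentile, median and 90th percentile in unthinned wells were 0, 35.2 and 150 CPM. *Grin1*, at 1.01, was as even as counting allows, and *Grik5* was at 1.06. The coefficient of variation beyond counting was 0.943 for *Gria1*, 0.895 for *Grik1*, 0.785 for *Gria3*, 0.744 for *Grik2*, 0.462 for *Gria4* and 0.454 for *Gria2*. It was 0.338 for *Grik5*, 0.107 for *Grin1* and 0.428 for the median gene. The values of *Grik2* (index 1.09), *Grik5* and *Grin1* rest on indices within 2 SD of counting noise, so they are not told apart from counting alone. In p1 wells of at least 50000 UMIs the index was 1.42 for *Gria2*, 1.32 for *Grik1* and 1.14 for *Gria1*. For *Grik1*, 1 well of library 6 held 231 of its 2606 UMIs. At p1, 5 of these 8 members exceeded 1 by over 2 SD of counting noise, beside 35.9% of all genes with such a mean. At this age *Gria1* and *Gria2* were higher in the shallow wells. The 165 p1 proprioceptors under 50000 UMIs had 77.2 CPM of *Gria1* and the 191 deeper ones 36.6, with 354 and 321 CPM of *Gria2* and 72 and 99.7 CPM of *Grik1*. These wells are pooled over libraries. The median depth over all wells was 79442 and 60947.5 UMIs in libraries 1 and 2 and 1409 to 20907 in libraries 3 to 6. Depth was therefore not separated from library.

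**Figure D5:**
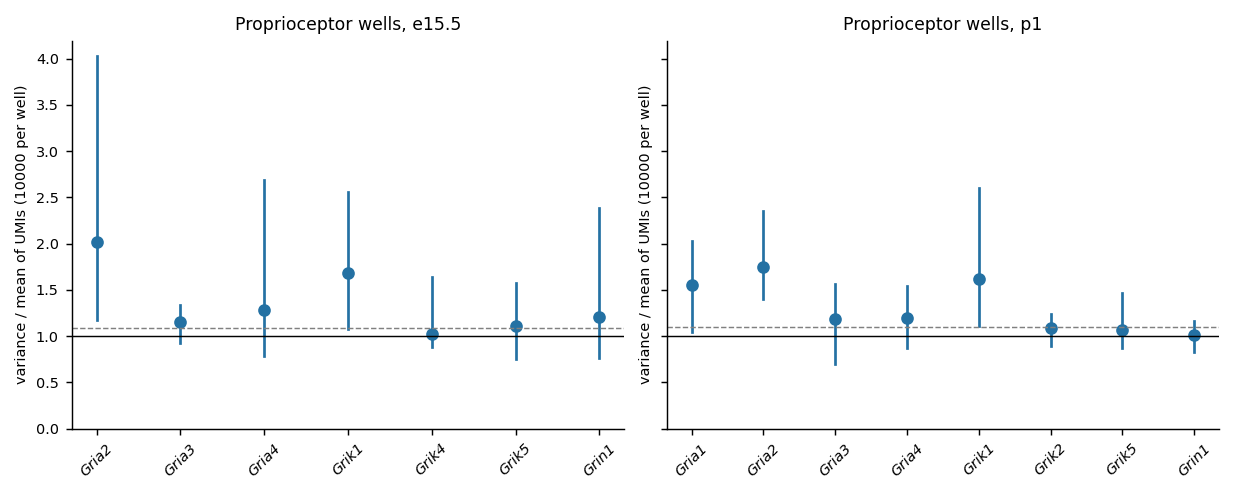
Variance over mean of UMIs per proprioceptor well, thinned to 10000 UMIs, for subunits with a mean of at least 0.1 UMI at e15.5 and p1, with a point for all libraries pooled and a line from the lowest to the highest library. The solid line at 1 marks counting noise alone and the dashed line the median gene (1.08 and 1.10), and *Gria2* (2.02 and 1.75) and *Grik1* (1.68 and 1.61) are highest at both ages. For a given spread beyond counting, this measure grows with the mean of a gene.

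Within libraries the members varied together only weakly, as a description over wells that share library and depth. At e15.5 the median within-library correlation of *Gria2* was 0.141 with *Gria4* and 0.136 with *Grik1*, positive in 10 of 10 libraries each. The strongest relation seen for a member was that of *Grik1* with *Tox*, at -0.259 and negative in 10 of 10 libraries (-0.540 to -0.0884), but at p1 it was -0.131 and positive in 2 of 6 libraries. Such correlations in sparse counts are small.

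Over the 30 sums of e15.5 proprioceptor, other and connective wells, the genes whose log2 levels followed *Gria2* most closely among 8462 genes were *Arnt2* (Pearson's r 0.918), *Plxna2* (0.900), *Sgsm3* (0.889), *Disp2* (0.887) and *Vps33a* (0.883). Those closest to *Grik5* were *Hras* (0.930), *Ppp2r1a* (0.924), *Actr1a* (0.922), *Clstn1* (0.919) and *Uba1* (0.916). The sums of 1 library share its processing and the 3 classes differ widely, so these values describe a shared pattern over classes and no more.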

How the data were processed

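Each sample is a CEL-Seq2 library of 96 wells, and libraries use the same 96 well barcodes. The deposited values are UMI counts per gene and well, which the authors obtained with scruff on reads mapped to mouse (GRCm38 and mm10 in the submitters' processing notes). Ensembl IDs were matched to GENCODE M21, which gave symbols to 49326 of 49671. IDs with no symbol held 0.0656% (e15.5) and 0.0536% (p1) of UMIs. Groups are the ages in the labels. Members, lists and class limits were chosen with earlier results of these data known. Wells with 2 cells were not removed.

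Counts were summed per library and class (at least 3 wells), filtered with filterByExpr, scaled with TMM and tested with edgeR 4.0.16 (quasi-likelihood test, Benjamini-Hochberg adjustment, threshold 0.05) in R 4.3.3, with no library term. DESeq2 1.42.0, a replicate block, other limits on wells and the omission of each library were alternatives. Those leaving out wells under 50000 UMIs or rich in connective transcripts, and the fit of both ages together, were chosen after seeing the data. Classes were summed from the same libraries, which pairs them. The median correlation of paired deviations was 0.0346 for proprioceptors and other neurons and 0.106 (e15.5) and 0.0178 (p1) for marked classes. Named genes were all members and, per list and comparison, up to 4 called genes with the largest change. Some genes of the lists are not reported here. On simulated counts the test recovered 89.5%, 95.5%, 94.5% and 93% of 200 genes changed 4-fold in the 4 comparisons, in the order reported. Unchanged genes made up 6.77%, 4.5%, 5.97% and 4.12% of the calls. The simulated sums were drawn independently, and changes smaller than 4-fold were not simulated. A count of 0 was taken to allow 3 UMIs. Tables and figures were made in Python 3.11.15 with NumPy 2.4.6, pandas 2.3.3, SciPy 1.17.1 and Matplotlib 3.10.9.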

Additional observations from a re-analysis of the deposited data

Results flagged for a closer look

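Of 69 groups of 4 to 10 libraries, 10 had 1 library apart from the rest by Dixon's criterion, which chance meets in about 1 in 20 groups. In e15.5 proprioceptors these were *Gria4* in library 1 (126 CPM, next 96.2) and *Grik3* in library 5 (1.86 CPM). In e15.5 other neurons they were *Gria2* in library 10 (214 CPM, next 109), *Grik3* in library 7 (10.2 CPM) and *Grik4* in library 10 (77.2 CPM, next 32.0). In *Gabrg1*-marked e15.5 proprioceptors, *Grik5* was low in library 8 (103 CPM, next 139) and *Grin1* high in library 10 (92.5 CPM, next 57.2). In *Tox*-marked e15.5 proprioceptors, *Gria1* was high in library 10 (11.4 CPM), *Grik2* in library 3 (13.1 CPM) and *Grik3* in library 5 (2.52 CPM).

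*Syndig1*, which encodes an AMPA receptor-associated protein, was the only gene of the lists whose difference between *Gabrg1*-marked and *Tox*-marked proprioceptors changed with age past the threshold (-2.21 on the log2 scale, p1 minus e15.5, edgeR adjusted p = 0.0441 for the interaction). Of all 11208 genes in that fit, 31 were called higher and 16 lower.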

How the results depend on the processing

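In proprioceptors against other neurons, *Gria2* (1.26 to 1.88 on the log2 scale) and *Gria4* kept their calls in each alternative run. *Gria3* turned to 0.63 between wells with all 4 markers and none, and *Grik5*, never called, to -0.15 without wells rich in connective transcript and -0.0063 with markers at 50 CPM. From e15.5 to p1, *Gria4* turned to -0.025 with a replicate block, -0.057 with no filter on low counts and -0.071 in wells of at least 50000 UMIs, and *Grik4* to -0.025 with no filter and -0.0017 without glial wells. Leaving out 1 library gave -0.025 to 0.12 for *Gria4* and -0.13 to 0.37 for *Grik4*. Numbers are shared between ages by name only (median correlation -0.0490), and the block changed no member call there. Between *Gabrg1*-marked and *Tox*-marked wells at e15.5, 550 genes and 1 member were called, with 0 members without glial wells and with marking at 100 CPM (339 genes) or 20 CPM (327 genes). *Gria3* turned to 0.17 (block), 0.21 (sums of 5 wells or more), 0.13 (50000 UMIs) and 0.21 (no glial wells), *Grik4* to -0.050 (block), *Grin1* to -0.059 (sums of 5 wells), -0.18 (no glial wells) and -0.020 (20 CPM), *Gria4* to -0.0023 and *Grik5* to 0.015 (20 CPM). Leaving out 1 library gave 331 to 582 genes (331 without library 8, 356 without library 9), and -0.58 to 0.15 for *Gria3*, -0.041 to 0.60 for *Grik4*, -0.090 to 0.11 for *Grik5* and -0.036 to 0.29 for *Grin1*. At p1, 97 genes and 1 member were called. The block gave 2 genes and 0 members (*Gria2* -0.058, *Grik5* 0.073), no filter 461 genes and 2 members, 50000 UMIs 53 genes and 0 members, and 100 CPM 52 genes and 0 members (*Gria2* -0.19), and *Grin1* was -0.0067 in wells of at least 20000 UMIs. Leaving out 1 library gave 29 to 202 genes (202 without library 1, 29 without 2, 42 without 5 and 46 without 6), 0 to 2 members, and -0.031 to 0.21 for *Gria2*, -0.29 to 0.011 for *Grik5* and -0.074 to 0.15 for *Grin1*. The cause of these changes was not tested. Depth limits *Grik3* most, with 14 UMIs in all e15.5 proprioceptors.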
